A study of Mus musculus with 9 samples.

Results

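The genes described here are *Znhit6* and 33 other genes of small nucleolar ribonucleoprotein (snoRNP) assembly and ribosome biogenesis. They make up 34 of the 18193 genes that the annotation of the array names alone on a probe set. *Znhit6* was chosen by its measured rise at 24 h after low-intensity pulsed ultrasound (LIPUS) on these same arrays, so its values are a description and carry no test. The other 33 genes were listed by function, as the core proteins and assembly factors of box C/D snoRNPs (7 genes), the core proteins of H/ACA snoRNPs (4), nucleolar proteins with the snoRNP chaperone *Nolc1* (6), the machinery of RNA polymerase I (5), processing factors of the small (4) and large (6) ribosomal subunit, and *Myc*. Where a gene had several probe sets, the one with the highest mean over the 9 arrays was used. The question was whether the wider nucleolar genes followed *Znhit6* over the control, 6 h and 24 h arrays of each experiment.

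MC3T3-E1 is a mouse preosteoblast line from newborn calvaria. All cells were kept for 14 days in medium with ascorbic acid and β-glycerophosphate, then reseeded and cultured for 24 h. The groups had 3 arrays each. They were mock-treated control cells, cells given LIPUS for 20 min (1.5 MHz, 30 mW/cm2) followed by 6 h of culture, and cells given the same LIPUS followed by 24 h of culture. Each array belongs to 1 of 3 numbered experiments. The labels do not say how long the mock-treated cells were cultured before harvest, so LIPUS and time in culture cannot be told apart. The study describes them as repeated experiments. Neither it nor the labels say how separate their cultures were. The p-values below therefore measure only the spread between these arrays that is left after differences between the experiments are removed. The deposited values are log2 signals, with array medians of 4.89 to 5.15. Osteoblast markers were checked first. *Col1a1*, the main collagen of bone, lay at a log2 signal of 12.4 to 12.8 in control cells and *Sparc*, a bone matrix protein, at 13.5 to 13.7. *Sp7*, an osteoblast transcription factor, lay at 6.73 to 7.28, while *Alpl* (4.56 to 5.29) and the late marker *Ibsp* (2.99 to 3.53) were near or below the array medians. Among markers of other cell types, the leukocyte gene *Ptprc* (2.74 to 3.08) and the endothelial gene *Pecam1* (2.97 to 3.45) were low. The macrophage genes *Lyz2* (6.12 to 6.75) and *Csf1r* (5.67 to 5.94) and the endothelial gene *Kdr* (5.36 to 5.80) lay above the array medians. The other macrophage and endothelial markers measured lay below these medians. The epithelial gene *Krt14* (9.65 to 9.91) and the cartilage gene *Col2a1* (9.88 to 10.2) were well above the array medians.

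Ribosomal RNA is transcribed by RNA polymerase I in the nucleolus as a long precursor, which is cut, chemically modified and packed with ribosomal proteins into the small and large subunits. Box C/D snoRNPs carry *Nop56*, *Nop58* and the methyltransferase fibrillarin (*Fbl*) and direct ribose methylation of the precursor, and H/ACA snoRNPs carry dyskerin (*Dkc1*), *Nhp2*, *Nop10* and *Gar1* and direct its pseudouridylation. *Znhit6* (also called BCD1) is an assembly factor of box C/D snoRNPs that acts with *Znhit3* and the ATPases *Ruvbl1* and *Ruvbl2*, and *Myc* is a transcription factor known for driving ribosome biogenesis genes in growing cells.

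*Znhit6* is represented by a single probe set. In experiments 1, 2 and 3 its log2 signal was 9.83, 10.22 and 9.73 in control cells, 9.92, 10.24 and 9.81 at 6 h, and 10.38, 10.62 and 10.30 at 24 h. The 24 h arrays all lay above all control and 6 h arrays, while the 6 h and control ranges overlapped. The mean change was 0.51 in log2 at 24 h, a fold of 1.42 ± 0.086 (SD, n = 3 experiments), and 0.07 at 6 h, a fold of 1.05 ± 0.027. By its change at 24 h it ranked 59 among the 9031 genes that were at least as bright as the dimmest gene of the group.

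The promoters of *Znhit6* and of 4 other genes of the group are shown because the members that moved together can be compared there. The first 3 belong to *Znhit6* and the nearest genes to it by ratio that have a promoter in the table, and the last 2 to genes that hold the E-box CACGTG, the letters that Myc and related factors are known to bind. Each sequence is the 250 bases before the annotated transcript start, 5′ to 3′ on the strand of the gene, from RefSeq on GRCm38.p6, and capitals mark CACGTG.
*Znhit6*, chr3:145575958-145576207, plus strand: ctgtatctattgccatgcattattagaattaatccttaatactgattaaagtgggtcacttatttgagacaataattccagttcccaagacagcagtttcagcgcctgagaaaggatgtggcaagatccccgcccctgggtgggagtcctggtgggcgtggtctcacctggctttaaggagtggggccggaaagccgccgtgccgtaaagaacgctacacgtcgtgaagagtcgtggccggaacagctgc
*Nop56*, chr2:130274162-130274411, plus strand: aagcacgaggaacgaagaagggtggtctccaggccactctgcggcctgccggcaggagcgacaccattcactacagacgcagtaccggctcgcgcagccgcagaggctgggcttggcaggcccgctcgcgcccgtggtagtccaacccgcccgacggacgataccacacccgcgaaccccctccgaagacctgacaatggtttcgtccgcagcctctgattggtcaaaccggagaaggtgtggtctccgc
*Gnl3*, chr14:31019132-31019381, minus strand: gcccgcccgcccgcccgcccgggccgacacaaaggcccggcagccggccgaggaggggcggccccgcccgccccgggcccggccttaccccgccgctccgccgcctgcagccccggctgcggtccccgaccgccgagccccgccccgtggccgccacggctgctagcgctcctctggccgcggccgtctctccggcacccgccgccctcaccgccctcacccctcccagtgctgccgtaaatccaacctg
*Nop2*, chr6:125131633-125131882, plus strand: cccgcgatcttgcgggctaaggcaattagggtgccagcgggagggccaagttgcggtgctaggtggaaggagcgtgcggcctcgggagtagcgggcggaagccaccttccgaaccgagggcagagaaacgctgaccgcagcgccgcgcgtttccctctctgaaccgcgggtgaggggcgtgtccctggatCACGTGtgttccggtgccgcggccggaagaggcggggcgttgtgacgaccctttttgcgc
*Rrn3*, chr16:13780449-13780698, plus strand: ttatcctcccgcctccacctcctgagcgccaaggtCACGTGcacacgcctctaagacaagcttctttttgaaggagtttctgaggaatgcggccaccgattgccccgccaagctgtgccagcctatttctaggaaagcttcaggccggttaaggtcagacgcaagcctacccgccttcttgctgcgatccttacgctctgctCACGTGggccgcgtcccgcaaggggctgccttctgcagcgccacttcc
CACGTG reads the same on both strands. The 250 bases before and 50 bases after the start were searched. Of the 28 members with a promoter in the RefSeq table, 5 (17.9%) held CACGTG in a window, namely *Nop2*, *Pes1*, *Rrn3*, *Mybbp1a* and *Imp4*. Of all 27025 genes in the table, 2187 (8.09%) did. *Nop2* was the only one of these 5 members that passed the test at 24 h below, and the promoters of *Znhit6*, *Nop56* and *Gnl3* did not hold these letters. *Znhit3*, *Fbl*, *Npm1*, *Rrp12*, *Bop1* and *Myc* were not searched.

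**Figure D1:**
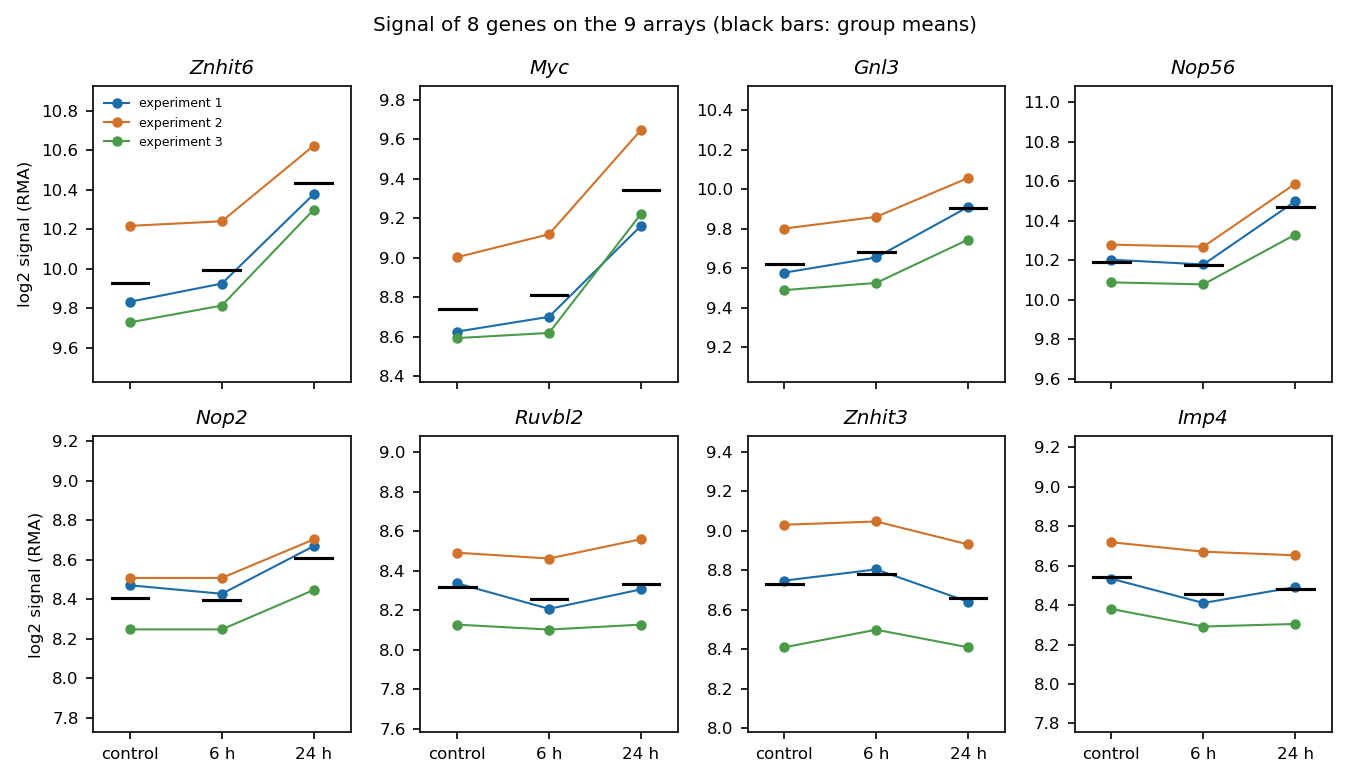
Log2 signal of *Znhit6* and 7 other members in control, LIPUS 6 h and LIPUS 24 h cells. *Myc*, *Gnl3*, *Nop56* and *Nop2* passed the test at 24 h, and *Ruvbl2*, *Znhit3* and *Imp4* are the 3 members farthest from *Znhit6*. Each line joins the 3 arrays of 1 experiment, and each panel spans the same number of log2 units. For *Znhit6*, *Myc*, *Gnl3*, *Nop56* and *Nop2* the 6 h point lies close to the control point and the 24 h point above both in every experiment. For *Znhit6*, *Myc* and *Nop56* the 24 h arrays all lie above the control arrays. For *Znhit3* and *Imp4* no 24 h point lies above the control point of its experiment, and *Ruvbl2* stays near its control.

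At 24 h, 7 of the 33 other genes were higher than in control cells and 0 were lower. They were *Myc*, the box C/D proteins *Nop56* and *Nop58*, the nucleolar GTPase *Gnl3* (nucleostemin), the large subunit factors *Nop2* and *Nip7*, and the H/ACA protein *Nhp2*. The rises were small, from 0.15 for *Nip7* to 0.60 for *Myc* in log2. The test was limma on all 45037 probe sets with the experiment as a block and Benjamini-Hochberg adjustment at 0.05, and it called 2.73% of all probe sets (1.80% higher, 0.933% lower). Among the 9031 genes at least as bright as the dimmest member, 4.73% were called higher and 3.06% lower, against 21.2% and 0.0% of the 33 members. The median change of the 33 genes was 0.12 (0.13, 0.12 and 0.13 in experiments 1, 2 and 3), beside 0.016 for the equally bright genes, and 31 of the 33 estimates were above 0. An unadjusted p under 0.05 was reached by 18 of the 33 genes, and by 2524 of the 9031 equally bright genes. None of the calls held in a fit without the experiment block, with experiment 1 or 2 left out, or on the control and 24 h arrays alone, and 5 genes passed without experiment 3, of which 4 were among the 7. Without experiment 1 the test called 0 of all 45037 probe sets, and without experiment 2 it called 49.

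**Figure D2:**
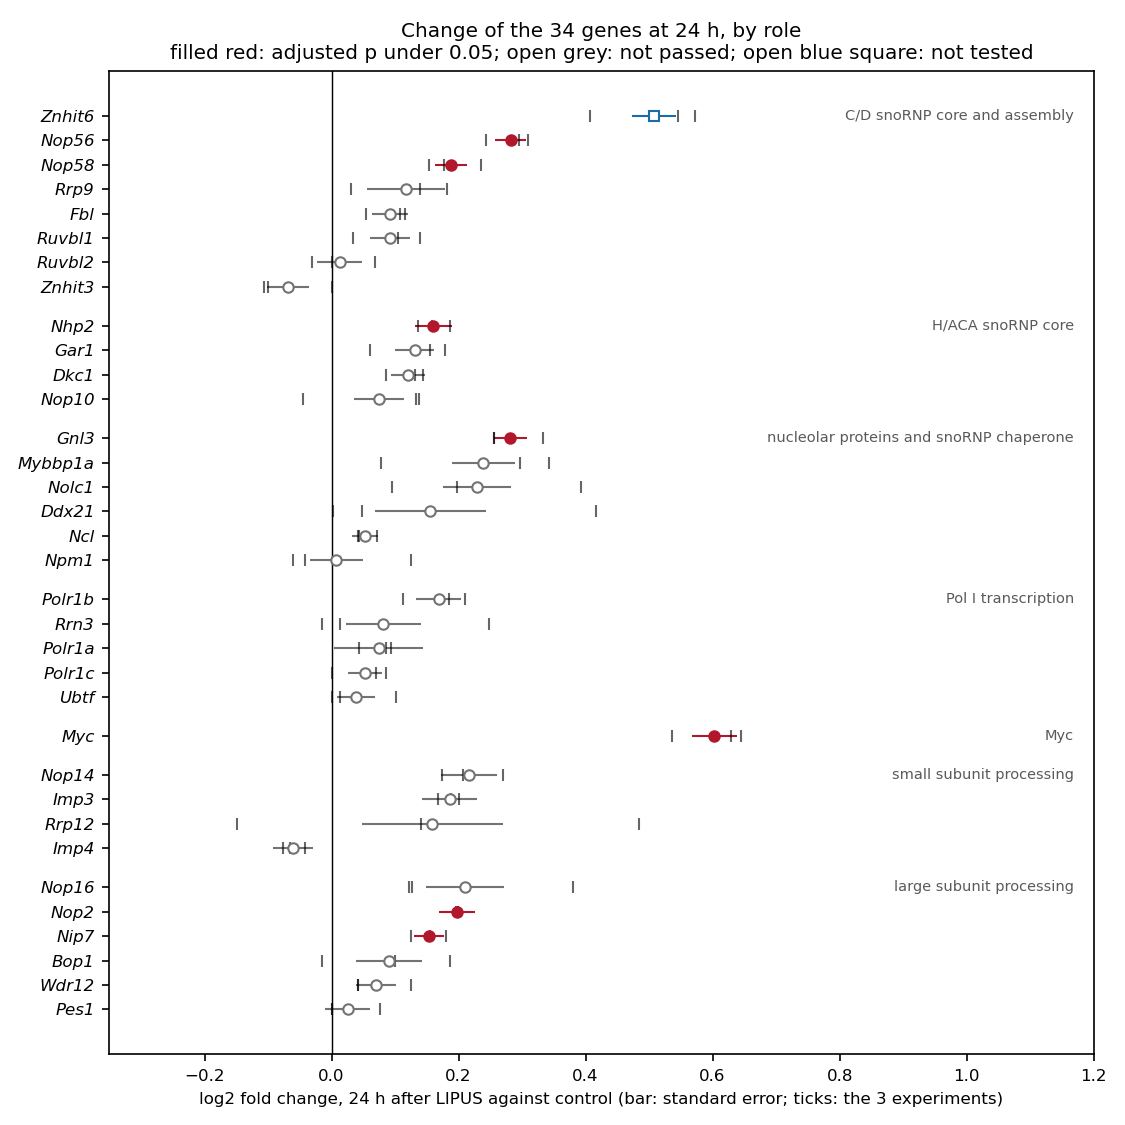
Log2 fold change of the 34 genes at 24 h against control, by role. Points are limma estimates, bars are 1 standard error, small marks are the 3 experiments, and filled points passed the adjusted p of 0.05. *Znhit6* is drawn without a test. Most points lie right of 0 and below 0.3, *Znhit6* (0.51) and *Myc* (0.60) lie apart from the rest, and *Znhit3* and *Imp4* lie left of 0.

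Among the other members, *Myc* was the gene whose 6 ratios came nearest to those of *Znhit6*. Genes outside the group were not compared in this way. Its log2 signal in experiments 1, 2 and 3 was 8.63, 9.002 and 8.59 in control cells, 8.70, 9.12 and 8.62 at 6 h, and 9.16, 9.65 and 9.22 at 24 h. The 24 h arrays all lay above the control and 6 h arrays. The rise was 0.60 in log2 (SE 0.036, limma adjusted p = 7.31e-04), a fold of 1.52 ± 0.061 (SD, n = 3). *Myc* ranked 42 among the 9031 genes by this change, so it was the only other member near the rank of *Znhit6*. The root mean square distance between its ratios at 6 h and 24 h and those of *Znhit6* was 0.11 in log2 units. *Gnl3* (0.17) and *Nop56* (0.18) came next, and *Imp4* (0.42) and *Znhit3* (0.41) were farthest, followed by *Ruvbl2* (0.37).

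Of the box C/D genes, 2 of 7 were higher at 24 h, with a median change of 0.093. *Nop56*, which binds the snoRNA together with *Nop58*, had a log2 signal of 10.20, 10.28 and 10.09 in control cells, 10.18, 10.27 and 10.08 at 6 h, and 10.50, 10.59 and 10.33 at 24 h. Its 24 h arrays all lay above the control arrays, while its 6 h arrays lay at the control level. The rise was 0.28 (SE 0.025, limma adjusted p = 0.00259). *Nop58* gave 10.89, 11.18 and 10.82 in control cells, 10.89, 11.23 and 10.90 at 6 h, and 11.06, 11.33 and 11.06 at 24 h. The 24 h value was the highest in each experiment, but the groups overlapped because experiment 2 was brighter throughout. The rise of *Nop58* was 0.19 (SE 0.025, limma adjusted p = 0.0122).

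The remaining box C/D genes did not pass at 24 h. *Fbl* had an estimate of 0.093 (limma adjusted p = 0.206). None of the direct partners of *Znhit6* in snoRNP assembly passed. *Znhit3*, another zinc-finger HIT assembly factor, gave 8.75, 9.03 and 8.41 in control cells, 8.80, 9.05 and 8.50 at 6 h, and 8.64, 8.93 and 8.41 at 24 h. At 24 h it was lower than control in 2 experiments and equal in experiment 3 (estimate −0.069, limma adjusted p = 0.465). *Ruvbl2* gave 8.34, 8.49 and 8.13 in control cells, 8.21, 8.46 and 8.10 at 6 h, and 8.31, 8.56 and 8.13 at 24 h. Its estimate was 0.013 (limma adjusted p = 0.905). *Ruvbl1* had 0.092 (adjusted p = 0.266). *Rrp9*, a protein of the U3 snoRNP, lay above all its control arrays on all 24 h arrays, yet its estimate of 0.12 did not pass (limma adjusted p = 0.510). Arrays that do not overlap upwards were found for 3 of the 33 genes (*Myc*, *Nop56* and *Rrp9*), and for 0.901% of all probe sets or 1.59% of the equally bright genes.

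All 4 H/ACA genes had estimates above 0, with a median of 0.13, and 1 of them passed. *Nhp2* gave 10.88, 11.05 and 10.59 in control cells, 10.86, 11.10 and 10.66 at 6 h, and 11.06, 11.19 and 10.75 at 24 h, a rise of 0.16 (SE 0.029, limma adjusted p = 0.0374). The 24 h array was the highest of each experiment and the groups overlapped, while at 6 h experiment 1 lay just below control and the others above it. *Dkc1*, the pseudouridine synthase, had an estimate of 0.12 (limma adjusted p = 0.0824) and *Gar1* of 0.13 (0.0940). Both lay above control at 24 h in every experiment without passing. *Nop10* had 0.075 (adjusted p = 0.510) and was lower than control in experiment 3.

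Of the 6 nucleolar proteins, 1 passed, and the median change was 0.19. *Gnl3* gave 9.58, 9.80 and 9.49 in control cells, 9.65, 9.86 and 9.53 at 6 h, and 9.91, 10.06 and 9.75 at 24 h. It was higher than control at both times in every experiment, and its groups overlapped. The rise at 24 h was 0.28 (SE 0.027, limma adjusted p = 0.00386). *Mybbp1a*, a nucleolar Myb-binding protein, had 0.24 (adjusted p = 0.0628), with 0.30, 0.34 and 0.08 in experiments 1, 2 and 3. *Nolc1*, the chaperone that shuttles snoRNPs, had 0.23 (adjusted p = 0.0938), with 0.10, 0.20 and 0.39. The abundant nucleolar proteins nucleolin (*Ncl*, 0.052 on its brightest of 5 probe sets, adjusted p = 0.363) and nucleophosmin (*Npm1*, 0.0076, adjusted p = 0.955) had small estimates, and the helicase *Ddx21* had 0.16 (0.546), almost all of it from experiment 3. *Npm1* was the brightest member, at a mean log2 signal of 13.2.

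None of the 5 RNA polymerase I genes passed, and their median change was 0.074. The second largest subunit *Polr1b* came nearest, at 0.17 (limma adjusted p = 0.0672) with a higher value in all experiments. *Polr1a*, the largest subunit, had 0.074 (0.706), and *Polr1c*, a subunit shared with RNA polymerase III, had 0.052 (0.502). The initiation factors *Rrn3* and *Ubtf* had 0.082 (0.637) and 0.039 (0.658). For *Rrn3*, whose promoter is printed above with CACGTG at positions −215 and −48 from the start, the ratios were −0.01, 0.01 and 0.25.

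Of the small subunit factors, 0 of 4 passed, with a median of 0.17. *Nop14* had 0.22 (limma adjusted p = 0.0596) and *Imp3*, which binds the U3 snoRNA, had 0.19 (0.0924), both higher than control in every experiment. *Imp4*, which binds U3 together with *Imp3*, gave 8.53, 8.72 and 8.38 in control cells, 8.41, 8.67 and 8.29 at 6 h, and 8.49, 8.65 and 8.30 at 24 h. On this probe set it was thus lower than control at both times in every experiment. Its estimate at 24 h of −0.061 did not pass (0.505). A further probe set of *Imp4* had 0.16 at 24 h (limma adjusted p = 0.573) and another had −0.050 (0.786). *Rrp12* was the dimmest member, at a mean log2 signal of 6.58, and its ratios ran from −0.15 to 0.48.

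Of the large subunit factors, 2 of 6 passed and the median was 0.12. *Nop2*, an RNA methyltransferase, gave 8.47, 8.51 and 8.25 in control cells, 8.43, 8.51 and 8.25 at 6 h, and 8.67, 8.70 and 8.45 at 24 h. The 24 h ratio was nearly identical in the 3 experiments, a fold of 1.15 ± 0.0018 (SD, n = 3), and the estimate was 0.20 (SE 0.029, limma adjusted p = 0.0165). *Nip7*, which acts in late processing of the large subunit, gave 9.98, 10.25 and 9.89 in control cells, 9.98, 10.26 and 9.92 at 6 h, and 10.14, 10.38 and 10.07 at 24 h. Its rise was 0.15 (SE 0.023, limma adjusted p = 0.0200). Both genes were at the control level at 6 h and overlapped between groups at 24 h. The 3 proteins of the PeBoW complex, *Pes1* (0.025, adjusted p = 0.803), *Bop1* (0.090, 0.554) and *Wdr12* (0.069, 0.438), did not pass, nor did *Nop16* (0.21, 0.181).

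At 6 h, 0 of the 33 genes passed, and limma called 0.00% of all probe sets. At an unadjusted p under 0.05 the count was 4 genes (513 of the 9031 equally bright genes). All 4, *Fbl*, *Ncl*, *Polr1a* and *Imp4*, had estimates below control, while *Znhit6* was slightly above it. The unadjusted test of the study's methods, taken here on log2 values, gave 0. The estimates ran from −0.17 for *Polr1a* to 0.11 for *Nolc1*, with a median of −0.0042, and 16 were above 0. *Znhit6* was above control at 6 h in all experiments, by 0.09, 0.02 and 0.09. The same held for 7 other members, *Nop58*, *Znhit3*, *Nolc1*, *Gnl3*, *Polr1b*, *Myc* and *Nip7*, and for 1270 of the 9031 equally bright genes. *Myc* had ratios of 0.07, 0.12 and 0.03 at this time.

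**Figure D3:**
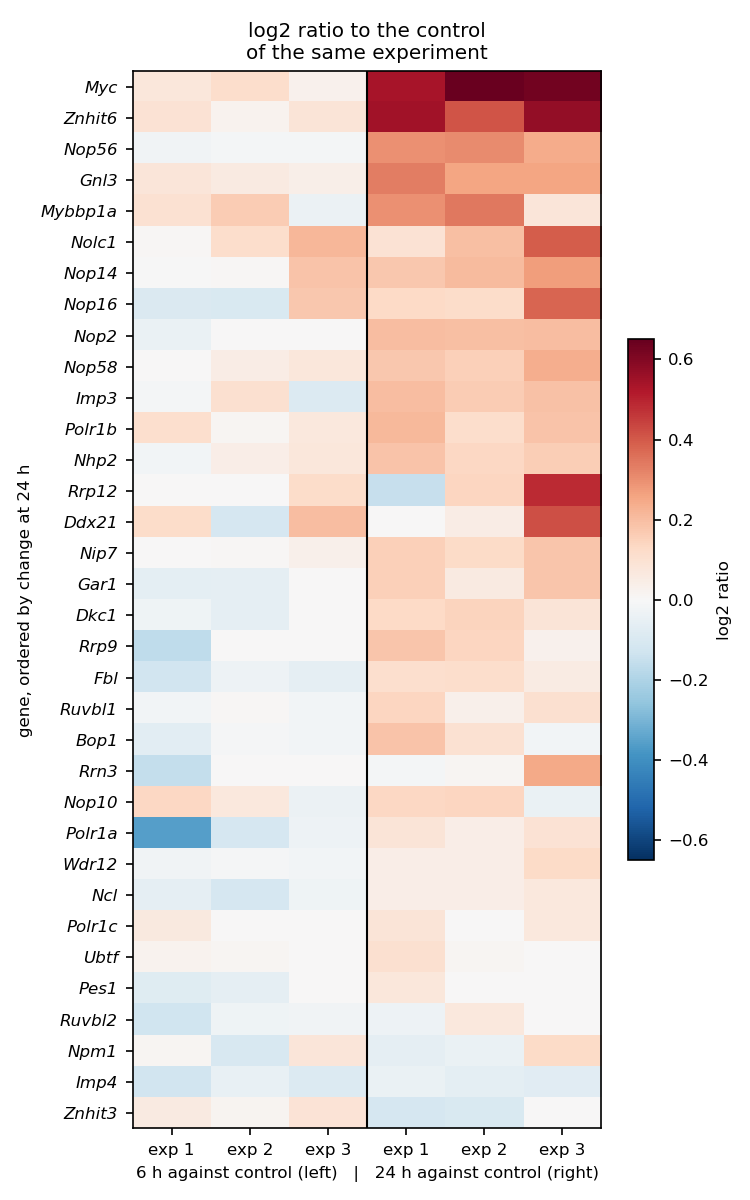
Log2 ratio to the control array of the same experiment for each of the 34 genes, at 6 h and 24 h in experiments 1, 2 and 3. Red cells are above and blue cells below the control. The 6 h columns hold both colours at similar strength, while the 24 h columns are red for most genes, deepest for *Znhit6* (0.55, 0.41 and 0.57) and *Myc* (0.54, 0.64 and 0.63).

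The 24 h arrays were also compared with the 6 h arrays. This comparison shares arrays with the others, so its calls are not separate evidence. Of the 33 genes, 10 were higher at 24 h and 0 lower (30.3% of the members, beside 2.02% of all probe sets called, 1.14% higher and 0.879% lower, and 3.17% of equally bright genes called higher and 2.89% lower). They were 6 of the 7 genes above, with *Nhp2* missing, and *Fbl*, *Dkc1*, *Gar1* and *Ncl* in addition. The median difference was 0.13. On the probe sets used, the 6 h values of the 4 additional genes lay at or below control. *Fbl* gave 10.82, 10.95 and 10.57 in control cells, 10.69, 10.91 and 10.51 at 6 h, and 10.92, 11.06 and 10.62 at 24 h, a difference between the times of 0.16 (limma adjusted p = 0.0391). *Ncl* gave 12.27, 12.44 and 12.12 in control cells, 12.21, 12.33 and 12.10 at 6 h, and 12.31, 12.48 and 12.19 at 24 h, a difference of 0.12 (adjusted p = 0.0420). The 6 h array was the lowest of its experiment in both genes. *Dkc1* gave 10.52, 10.71 and 10.37 in control cells, 10.49, 10.65 and 10.37 at 6 h, and 10.65, 10.85 and 10.46 at 24 h, a difference of 0.15 (adjusted p = 0.0460). *Gar1* gave 10.08, 10.27 and 9.57 in control cells, 10.01, 10.21 and 9.57 at 6 h, and 10.23, 10.33 and 9.75 at 24 h, a difference of 0.17 (adjusted p = 0.0446). On the probe sets used, in all 4 genes the 6 h array was at or under the control array of its experiment and the 24 h array above it. No further probe set of *Fbl*, *Dkc1* or *Ncl* passed this comparison. At 6 h the further probe sets of *Dkc1* had estimates above control (0.061 and 0.049) and that of *Fbl* below it (−0.096), while those of *Ncl* went both ways. The difference was larger for *Myc* (0.53, adjusted p = 0.00143), and it was described without a test for *Znhit6* (0.44). None of these calls held without the block or without experiment 1 or 2, and 8 genes passed without experiment 3, of which 6 were among the 10.

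The shape of *Znhit6*, with 24 h above both control and 6 h in all experiments, was shared by 21 of the 33 genes (63.6%), and the opposite shape by 0. Over all probe sets 6.67% had it, and among the equally bright genes 16.6% had it and 10.4% had the opposite. By role it held for 5 of 7 box C/D genes, 3 of 4 H/ACA genes, 4 of 6 nucleolar proteins, 2 of 5 RNA polymerase I genes, 2 of 4 small subunit factors, 4 of 6 large subunit factors, and *Myc*. The changes were mostly smaller than that of *Znhit6*. Apart from *Myc*, no estimate at 24 h reached 0.3 on the probe sets used, beside 0.51 for *Znhit6*.

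Several snoRNAs are spliced from introns of the genes that encode their partner proteins. In the RefSeq annotation, snoRNA genes lie inside *Nop56* (5), *Nop58* (4), *Gnl3* (3), *Ncl* (2) and *Dkc1* (1). These 5 genes had a median change at 24 h of 0.19, from 0.052 to 0.28, and 3 of them passed. Of the other 28 genes, 4 passed, with a median of 0.10. Among 222 other host genes of equal brightness 16 were called higher and the median was 0.030. The snoRNAs themselves were not measured here.

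Members with several probe sets did not always give 1 answer. There were 19 such genes with 29 further probe sets, of which 26 had estimates above 0 and 2 were called higher at 24 h. A further probe set of *Nolc1* rose by 0.53 (limma adjusted p = 0.00101), more than the brightest one (0.23), and another had 0.079 (0.551). A further probe set of *Pes1* rose by 0.33 (adjusted p = 0.00582), while the brightest had 0.025. In the other direction, *Nop56*, *Nhp2* and *Nip7*, all called at 24 h above, each had a further probe set that did not pass. These had 0.16 (limma adjusted p = 0.112), 0.13 (0.333) and 0.13 (0.448). The other genes called at 24 h had a single probe set. The 4 further probe sets of *Ncl* had 0.45, 0.15, 0.079 and 0.036, none called, and the mean over its probe sets had 0.15. Counted by any probe set, 9 of the 33 genes were higher. Of the probe sets used, 5 may read several genes or transcripts and 7 read several transcripts of 1 gene. Many values were tied in experiments 2 and 3, where arrays held 13358 to 20047 distinct values beside 40716 to 40936 in experiment 1. *Znhit3*, *Ruvbl2*, *Polr1c*, *Ubtf* and *Pes1* had equal 24 h and control values in some experiment. Equal 6 h and control values were found for 9 members. Among these were *Nop2* (experiments 2 and 3), *Dkc1* and *Gar1* (experiment 3), which were called in at least 1 comparison. The 3 groups share 1 estimate of the spread, and the part of this coarseness in the calls was not tested.

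**Figure D4:**
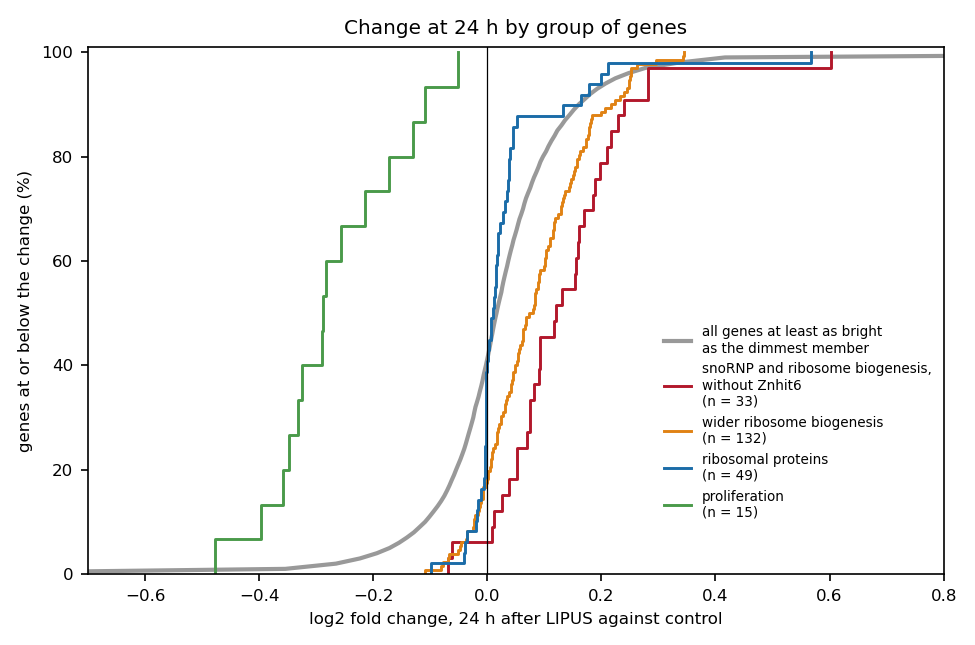
Cumulative share of genes by log2 fold change at 24 h against control. Lines show the 33 members without *Znhit6*, 132 other ribosome biogenesis genes, 49 ribosomal proteins, 15 proliferation genes and the 9031 genes at least as bright as the dimmest member. The members (median 0.12) and the other ribosome biogenesis genes (0.076) lie right of these 9031 genes (0.016). The ribosomal proteins (0.0094) do not, and the proliferation genes lie left of 0 (−0.29).

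Other genes of ribosome biogenesis were taken from lists drawn up by function, again with earlier results of these data known. Of 132 measured genes, 9 (6.82%) were higher at 24 h and 0 lower, with a median of 0.076, and 108 had estimates above 0. Of the 9031 genes at least as bright as the dimmest member, 4.73% were called higher, so the share called was near theirs. Of these 9031 genes, 5311 had estimates above 0, with a median of 0.016. Some of the 132 genes were dimmer than that limit, down to a mean log2 signal of 4.01. Assembly factors of the large subunit held 6 of the 9, of 52 measured, with a median of 0.10. The largest rises among those called were *Ppan* (0.35, limma adjusted p = 0.00999), *Gtpbp4* (0.26, 0.0101), *Nifk* (0.25, 0.00555) and *Surf6* (0.25, 0.0200). The small subunit processome held 2 of 47, *Tsr1* (0.25, adjusted p = 0.00877) and *Utp4* (0.25, 0.0450), and the RNA exosome held 1 of 14, its nuclease *Dis3* (0.20, 0.0141). Further snoRNP and chaperone partners of *Znhit6* gave 0 of 10, with a median of 0.046, and *Nufip1*, an adaptor of box C/D assembly, was at 0.21 (0.0657) and *Naf1*, an assembly factor of H/ACA snoRNPs, at 0.12 (0.191). Further RNA polymerase I factors gave 0 of 9, with a median of 0.028, and *Polr1e*, a subunit of the enzyme, was at 0.24 (0.282). At 6 h, 0 of the 132 genes passed. As for the members, none of the 9 calls held without the block or without experiment 1 or 2, and 9 genes passed without experiment 3. The order of 24 h above control and 6 h in all experiments held for 47 of the 132 genes (35.6%). It held for 16.6% of the 9031 genes and for 9.22% of all genes.

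Of the 49 ribosomal protein genes with a probe set named for them alone, 3 (6.12%) were higher at 24 h and 0 lower. This was near the share of genes at least as bright as the dimmest member (4.73% higher), and 2.57% of all genes were called higher. The median change of the 49 was 0.0094. The 3 called, on the probe sets used, were *Rpl12* (0.57, limma adjusted p = 0.00933), *Rps6* (0.20, 0.0132) and *Rpl14* (0.18, 0.0349). Most ribosomal protein genes were very bright, 34 of 49 with a mean log2 signal above 13. The 3 called were dimmer, at 7.41, 10.7 and 9.85, and the part of brightness in this count was not tested. Proliferation genes moved the other way. Of 15 measured, 10 were lower at 24 h and 0 higher, with a median of −0.29, led by the kinetochore protein *Cenpf* (−0.48, limma adjusted p = 0.00334), the mitotic cyclin *Ccnb2* (−0.40, 0.00123), the chromosomal passenger *Birc5* (−0.36, 0.00113) and the mitotic kinase *Plk1* (−0.35, 0.00759). Their summed level ran from 14.5 to 14.8 in log2 on control arrays, from 14.5 to 14.9 at 6 h and from 14.3 to 14.6 at 24 h. Fewer dividing cells and less of these transcripts per cell cannot be told apart in such bulk samples. The study also counted cells after LIPUS and reported that they grew at a rate similar to mock-treated cells. A few markers of other cell types were also called. The summed epithelial level was 10.1 to 10.4 on control arrays and 9.43 to 9.79 at 24 h (2 of 6 genes lower, *Krt14* at −0.98 and *Cdh1* at −0.75), and the chondrocyte level was 10.59 to 11.01 and 10.04 to 10.57 (1 of 6 lower, *Col2a1* at −0.82). The macrophage level was 7.44 to 7.72 and 7.62 to 8.11 (1 of 6 higher, *Lyz2* at 0.49). In each of these lists the brightest gene was among those called, and most others were not. Of 10 listed osteoblast markers 7 were measured here. Of these 7 markers 0 were called, and 3 had an unadjusted p under 0.05 (*Ibsp* 0.50, *Alpl* 0.28 and *Col1a1* 0.066). *Bglap* and *Spp1* were not among the 7, so their response cannot be judged here. The study measured both by quantitative PCR and reported a significant rise after LIPUS for *Bglap* only. The part of the shifts in proliferation genes and cell type markers in the changes of the snoRNP and ribosome biogenesis genes was not tested.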

How the data were processed

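Expression was measured on single-colour whole-genome mouse arrays. The authors had processed the scans with the RMA method, and the deposited values are log2 signals, one per probe set and array. Its version and settings are not given in the sources used here. The array holds 45101 probe sets. Its 64 control probe sets were dropped and 45037 were tested with no filter on low values. The annotation gave 1 symbol for 34945 probe sets, several for 932 and none for 9160, and only those with 1 symbol were named, with 1 probe set per gene by the highest mean.

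Samples were grouped by their labels. Changes were computed with limma 3.58.1 in R 4.3.3 (lmFit, then eBayes with trend), fitting the 9 arrays together with experiment number as a block and 4 residual degrees of freedom. Each LIPUS group was compared with control and the LIPUS groups with each other, with Benjamini-Hochberg adjustment over all probe sets at 0.05. The numbers pair the arrays, since the deviations of same-numbered arrays from their group means correlated at 0.701 to 0.933, and those of other numbers at −0.674 to 0.00916. Folds are the mean and SD of 3 ratios. Every member could be named. Values of each array are given for *Znhit6*, for members called in any comparison and for the 3 nearest to and farthest from *Znhit6*. Up to 4 called genes of each other list are named, by size, or where none was called up to 2 by the smallest p.

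The members and lists were chosen with earlier results of these data known, so no test over a list was made. Promoters came from the RefSeq table of GRCm38.p6. Alternatives were the block, the trend, quantile normalization, centring, the arrays in the fit, a filter on dim probe sets, gene means, the threshold, the methods' t-test and leaving out an experiment. The procedure was tested on simulated data. With arrays there is no count depth, and the number of arrays limits the precision.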

Additional observations from a re-analysis of the deposited data

Results flagged for a closer look

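The change at 24 h differed from the change at 6 h for 10 genes, by the limma test of the 24 h against the 6 h arrays (adjusted p under 0.05). The largest differences in log2 were those of *Myc* (0.53), *Nop56* (0.30), *Gnl3* (0.22) and *Nop2* (0.21). They were 0.17 for *Gar1*, 0.16 for *Fbl*, 0.15 for *Dkc1*, 0.14 for *Nop58*, 0.14 for *Nip7* and 0.12 for *Ncl*. In each of these genes the 24 h array was above the 6 h array in all 3 experiments. The genes were picked by a test on these same arrays, so this agreement is no separate evidence. *Znhit6* was not tested.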

How the results depend on the processing

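No estimate at 24 h changed direction among the 11 members followed singly (those called in either 24 h comparison), under any alternative. These members were picked by their rise at 24 h on the same arrays. Several alternatives, such as the fit without the block, also leave the estimate itself as it is. The stable direction is therefore no separate evidence. The counts of calls depended on the pairing of arrays, on the spread estimate and on experiments 1 and 2. Of the 33 members, 7 were called at 24 h against control, 10 at 24 h against 6 h, and 9 of the 132 wider genes at 24 h. These became 0, 0 and 0 without the replicate block, 0, 0 and 0 on the 2 groups compared alone, and 3, 2 and 3 without the intensity trend. The t-test of the methods gave 3, 1 and 2 unadjusted, and 0, 0 and 0 after Benjamini-Hochberg adjustment. Testing brighter probe sets only, which are fewer, gave 14, 10 and 16, and a threshold of 0.1 gave 14, 11 and 16. Gene means gave 11 members at 24 h. Centring gave 4 at 24 h against 6 h, beside 1.54% of all probe sets. Any probe set gave 16 wider genes. Over all features, the test of 24 h against control called 2.73% in the main fit. It called 1 of 45037 probe sets without the block, 5 on the 2 groups alone and 522 (1.16%) without the trend. Of the 22518 brighter probe sets it called 7.94%, and of the 18193 gene means 4.01%. Without experiment 1, 2 or 3 it called 0.0%, 0.109% or 3.2% of all probe sets. Leaving out 1 experiment gave 0 to 5, 0 to 8 and 0 to 9, lowest without experiment 1 or 2. The cause was not tested. At 6 h the count was 0 throughout. The median change at 24 h was 0.11 after quantile normalization and 0.13 with gene means, and 0.12 with any experiment left out. The order of *Znhit6* held for 20 to 24 members. On arrays, probe sets near background would limit the estimates, but all 34 members lay above the median of all probe sets.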

Other observations

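The partners and antagonists of Myc were looked at beside its own rise. Of 12 measured genes of the Myc network, 0 passed at 24 h by limma, 5 had an unadjusted p under 0.05 (2524 of the 9031 genes at least as bright as the dimmest member did), and the median change was 0.10. The smallest p-values were those of *Mxd4* (0.30, limma adjusted p = 0.0646) and *Mnt* (0.25, 0.201), which encode repressors that compete with Myc for its partner Max. Another repressor of this kind, *Mxd3*, had an estimate of similar size in the other direction (−0.30, 0.343). The order of 24 h above control and 6 h in all experiments held for 6 of the 12.

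The RNA exosome trims the ends of the ribosomal RNA precursor. The median change of its 14 genes at 24 h was 0.036, and *Dis3*, described above, was the only one called.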
